A study of Mus musculus with 6 samples.

Results

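The zinc finger records Znf41-ps, Zfp992, Zfp993, Zfp991 and Zfp979 lie in one cluster on mouse chromosome 4, between 145 and 148 Mb of the mm10 build. They were chosen by name because their counts were higher in Smchd1 null than in wild type cells, so that contrast is given for them as a description, without a test. All 5 had a record among the 27179 gene IDs of the count tables, and all 5 were among the 14207 genes that passed a filter on low counts. The count tables held 9 further records with a zinc finger symbol and 24 other records that lay wholly inside the interval.

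The RNA came from neural stem cells, grown from the brains of embryos of embryonic day 14.5 with EGF and bFGF and sequenced in bulk. There were 3 libraries homozygous for MommeD1, an allele of Smchd1 labelled null, set against 3 libraries labelled Smchd1 wild-type. All 6 were labelled male and C57BL/6 x FVB/N, and the labels give no other allele or agent for either group. The labels do not state that replicates are separate embryos or cultures, so each p-value rests on the spread between these libraries alone, and that spread may be technical.

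Zinc finger genes of this kind encode proteins with a KRAB domain at one end and a row of C2H2 fingers at the other. The fingers bind DNA, often in transposable elements, and the KRAB domain recruits the corepressor TRIM28 (KAP1), which brings the histone H3 lysine 9 methyltransferase SETDB1. The genes arise by local duplication and stand in clusters of close copies, many of them little expressed in somatic cells. SMCHD1, a chromatin protein with an SMC hinge domain, takes part in X inactivation and in the silencing of some autosomal clusters.

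Of the 5, Zfp992, Zfp993, Zfp991 and Zfp979 are annotated as protein coding and Znf41-ps as a transcribed pseudogene. Zfp979 is also known as Ssm1b, a mouse gene named as a strain-specific modifier of DNA methylation. In RefSeq coordinates on GRCm38.p6, whose chromosomes are those of mm10, Znf41-ps (Entrez 70005) spans 145789515 to 145831978 and Zfp992 (Entrez 433791) spans 146449030 to 146469440. Zfp991 (Entrez 666532) spans 147132093 to 147180579, and Zfp979 (Entrez 112422) spans 147611936 to 147642508. Zfp993 (Entrez 100503000) spans 146512849 to 146991471 in RefSeq, a predicted model, but 146610961 to 146658160 in GENCODE M21. Zfp979 is read from the minus strand and the other members from the plus strand.

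Of the 5 members, 4 are near copies of one another, which is shown by the first finger repeat in each coding sequence that ends in the conserved linker between fingers. Each line runs from the first cysteine codon to the last linker codon, 5′ to 3′ on the coding strand. It is taken from the GENCODE M21 transcripts of GRCm38, with the codons of the zinc-binding cysteines and histidines in capitals. For Znf41-ps, which has no coding sequence in the annotation, the reading frame was found by the finger pattern. Zfp979 had no finger with the exact linker, so its first finger is shown. Zfp984 and Zfp933, neighbours in the cluster, are added for comparison.
Znf41-ps: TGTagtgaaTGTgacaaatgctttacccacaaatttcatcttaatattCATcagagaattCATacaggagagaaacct
Zfp992: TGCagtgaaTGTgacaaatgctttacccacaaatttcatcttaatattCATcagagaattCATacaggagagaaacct
Zfp993: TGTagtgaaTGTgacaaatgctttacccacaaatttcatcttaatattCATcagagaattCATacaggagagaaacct
Zfp991: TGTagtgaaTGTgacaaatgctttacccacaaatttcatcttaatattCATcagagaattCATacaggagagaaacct
Zfp979: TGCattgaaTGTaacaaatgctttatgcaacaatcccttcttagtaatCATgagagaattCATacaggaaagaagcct
Zfp984: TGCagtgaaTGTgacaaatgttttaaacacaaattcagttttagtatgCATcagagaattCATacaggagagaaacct
Zfp933: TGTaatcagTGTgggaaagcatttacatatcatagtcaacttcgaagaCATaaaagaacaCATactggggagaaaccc

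Counting from 1 at the first base shown, the repeats of Znf41-ps, Zfp993 and Zfp991 each differed from that of Zfp992 by C3T alone, at 77 of 78 bases identical. The Zfp979 repeat matched Zfp992 at 64 of 78 bases, Zfp984 at 69 and Zfp933 at 49. Over the aligned coding sequences, Zfp992 and Zfp991 were 99.5% identical (1719 bases), and Zfp993 was 99.5% identical to Zfp992 and 99.8% to Zfp991 (940 bases). Zfp979 stood on another branch, at 81.4% to Zfp992 (1170 bases), and was closest to Rex2 at 89.9% and Zfp600 at 89.6% (1203 bases each). The coding sequences of Zfp992 and Zfp991 held 11 finger patterns each, that of Zfp979 held 3 and the shorter Zfp993 model held 2, and a KRAB box pattern was present in all 4. The Znf41-ps transcript held 11 finger patterns in its best frames.

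The near identity limits what a count can assign to 1 gene. Windows of 50 bases were taken at every position of each gene's GENCODE transcripts and looked up, on both strands, in the transcripts of every other gene. Such windows were unique to the gene for 10.4% of Znf41-ps, 57.0% of Zfp992, 13.2% of Zfp993, 17.8% of Zfp991 and 72.9% of Zfp979. At 100 bases the shares were 22.7%, 71.4%, 28.1%, 29.7% and 78.5% in the same order. For Znf41-ps the transcript searched was 2413 bases long, against 4566 for the gene length deposited with the counts. Its shares therefore do not cover the whole counted length. The genes that shared most 50-base windows with Zfp991 were Znf41-ps (1915 of 2854) and Zfp992 (1668). Taken as a group of 4, Znf41-ps, Zfp992, Zfp993 and Zfp991 had few windows elsewhere, with 8.33% of their 50-base and 2.04% of their 100-base windows found in any other gene. The sources used here do not say how reads matching several genes were counted. The split of reads among these 4 genes is therefore uncertain, and they are not 4 separate observations. Their sum is less affected, and Zfp979 is the one member outside the group.

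**Figure D1:**
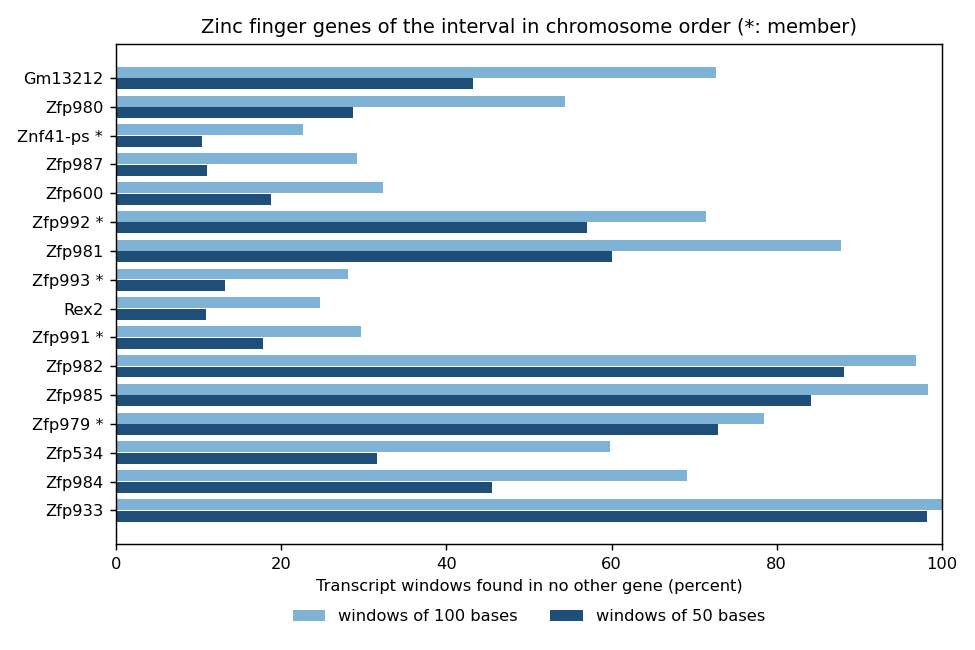
Share of transcript windows found in no other gene, in percent on the horizontal axis, for the zinc finger genes of the interval in chromosome order, with members starred (dark bars 50 bases, light bars 100 bases). Zfp933 is nearly all unique (98.2% at 50 bases), while Znf41-ps (10.4%), Zfp993 (13.2%) and Zfp991 (17.8%) are mostly shared.

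All 6 libraries held between 18608881 and 23253367 counts. Wild type replicate 3 stood apart from the rest, because 1 record took 44.6% of its counts, against 2.11% to 5.90% elsewhere. Its effective depth after TMM scaling was 10.1 M counts, against 21.3 to 25.8 M in the others. CPM values below are scaled to that effective depth. Smchd1 averaged 29.7 ± 1.68 CPM in null and 254 ± 20.0 CPM in wild type libraries (SD, n = 3 each), which matches the labels. Neural stem cell markers were abundant in both groups, and the 7 listed summed to 5084 to 5226 CPM in null and 5083 to 5586 CPM in wild type libraries. Sox2 stood at 278 ± 0.212 CPM in null and 265 ± 17.7 CPM in wild type. Nes stood at 1184 ± 35.8 CPM in null and 1286 ± 70.2 CPM in wild type, and Vim at 2092 ± 69 and 2174 ± 179 CPM. In bulk RNA, fewer cells that express a gene and less RNA per cell cannot be told apart.

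Znf41-ps, a transcribed pseudogene and the member nearest the start of the interval, was the most abundant member. It had 39.6, 35.2 and 37.0 CPM in null replicates 1 to 3, from 842, 752 and 831 counts, against 13.4, 13.5 and 13.9 CPM in wild type replicates 1 to 3, from 346, 317 and 140 counts. Every null library was above every wild type library, and the wild type values lay close together in spite of their depths. The fitted log2 fold change, null minus wild type, was 1.46 ± 0.08 (SE).

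Zfp992, a coding KRAB zinc finger gene, had 11.2, 12.4 and 12.2 CPM in null replicates (239, 265 and 273 counts). In wild type replicates it had 3.88, 3.54 and 3.97 CPM (100, 83 and 40 counts). The groups did not overlap, and its log2 fold change of 1.66 ± 0.12 (SE) was close to that of Zfp979 (1.65 ± 0.19). Which of them was the higher depended on the fit, since without wild type replicate 3 Zfp992 was at 1.68 and Zfp979 at 1.79. Zfp993, whose RefSeq record starts 723 kb beyond that of Znf41-ps against 660 kb for Zfp992, had 6.67, 6.93 and 6.33 CPM in null against 2.52, 2.30 and 2.58 CPM in wild type libraries, a log2 fold change of 1.43 ± 0.15 (SE). Zfp993 was the member with fewest counts, at 142, 148 and 142 in null and 65, 54 and 26 in wild type libraries.

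Zfp991, a coding near copy of Zfp992, had 10.3, 9.93 and 10.9 CPM in null libraries (219, 212 and 245 counts), against 4.61, 5.24 and 4.37 CPM in wild type libraries (119, 123 and 44 counts). It had the smallest log2 fold change of the 5, at 1.12 ± 0.13 (SE). Its groups did not overlap either. Zfp979, the member outside the near-identical group, had 12.2, 11.4 and 9.05 CPM in null libraries (260, 244 and 203 counts). In wild type libraries it had 2.87, 3.41 and 4.47 CPM (74, 80 and 45 counts), a log2 fold change of 1.65 ± 0.19 (SE). It varied most among replicates, with null replicate 3 lowest of the null libraries and wild type replicate 3 highest of the wild type libraries, and the gap between the groups was 4.58 CPM.

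**Figure D2:**
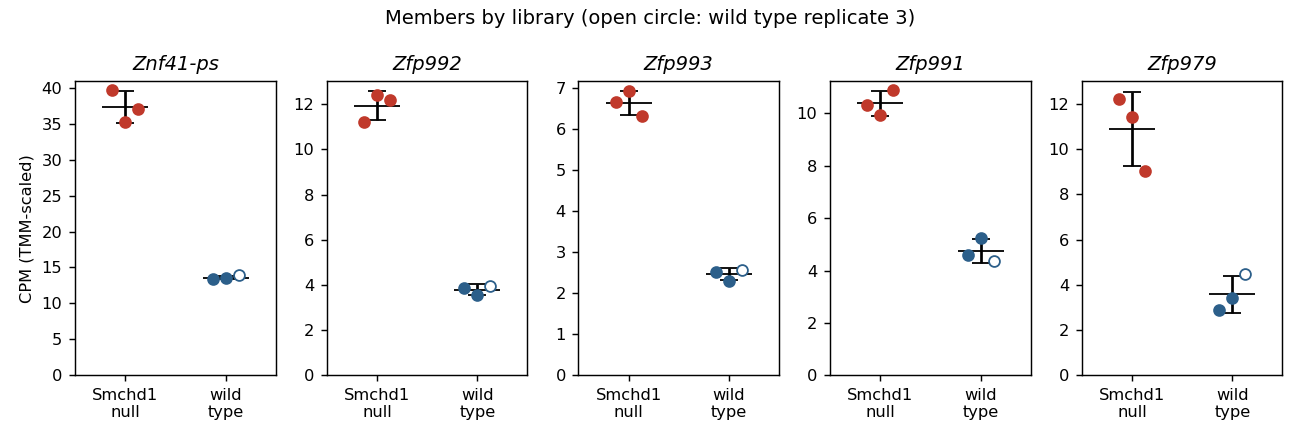
CPM of the 5 members on vertical axes starting at 0, with 1 point per library, Smchd1 null at left and wild type at right, and the mean with its SD (n = 3 each). The open circle is wild type replicate 3, the library that stood apart, which lies with the other wild type libraries for 4 members and above them for Zfp979 (4.47 CPM).

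All 5 members were thus among the 72 genes called higher in null by the edgeR quasi-likelihood test at an adjusted p under 0.05, which is the property that chose them. Without null replicate 1 neither Zfp991 nor Zfp979 was called, without null replicate 2 Zfp979 was not, and without null replicate 3 Zfp991 was not. Over all genes tested, 0.507% were called higher, 0.0704% lower and 0.577% either way. All 5 also had groups of libraries that did not overlap with null higher, as did 11.4% of all genes tested, with 10.6% lower and 22.0% either way.

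Summed over the near-identical group of 4, the level was 66.2 ± 1.63 CPM in null and 24.6 ± 0.194 CPM in wild type libraries (SD, n = 3 each), a ratio of 2.69. With Zfp979 added the sums were 77.1 ± 2.45 CPM in null and 28.2 ± 1.00 CPM in wild type libraries, a ratio of 2.74. The wild type sums of the 5 were 27.3, 28.0 and 29.3 CPM for replicates 1, 2 and 3, so the library that stood apart lay close to the others. The make-up of the sum changed less than its size. Znf41-ps gave 46.4% to 49.5% of the members' counts in null and 47.5% to 49.1% in wild type libraries, and Zfp992 gave 14% to 16.3% in null and 12.6% to 14.2% in wild type libraries. Zfp991 gave 12.9% to 14.5% in null and 14.9% to 18.7% in wild type libraries, the one member whose share was lower in every null library.

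Per kb of the gene length deposited with the counts, Znf41-ps averaged 8.16 CPM per kb in null and 2.98 in wild type libraries. The 4 coding members lay between 3.23 (Zfp992) and 4.35 CPM per kb (Zfp993) in null, and between 1.03 (Zfp992) and 1.72 CPM per kb (Zfp991) in wild type libraries. In the same unit, the median over the 370 tested zinc finger genes elsewhere in the genome was 4.35 in null and 4.19 in wild type libraries. In wild type cells the members' levels per kb, as counted, were thus low for zinc finger genes. Of those 370 genes, 11.4% (for Zfp992) to 35.9% (for Znf41-ps) lay below them, against 38.1% to 74.6% in null cells. Since the members were chosen for being higher in null, the 2 sets of shares differ by that choice. Levels per kb also depend on how reads matching several genes were counted, which is not known. Most windows of Znf41-ps, Zfp993 and Zfp991 occur in other genes, and shared windows were not searched for in the 370 genes. How far this moved the members' place among those genes was not tested.

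Among the other zinc finger genes of the interval, 3 passed the filter, and they did not move alike. Zfp982, whose record starts 1654 kb beyond that of Znf41-ps and so between Zfp991 (1343 kb) and Zfp979 (1822 kb), was also higher in every null library. It had 2.07, 1.22 and 1.38 CPM in null libraries (44, 26 and 31 counts), against 0.194, 0.341 and 0.695 CPM in wild type libraries (5, 8 and 7 counts). The groups did not overlap, and the log2 fold change of 2.14 ± 0.42 (SE) was larger than that of any member, but it did not pass the edgeR test (adjusted p = 0.0828). It passed with DESeq2 (adjusted p = 0.0202), with limma-voom and quality weights (adjusted p = 0.000463) and in edgeR without a filter (adjusted p = 0.00983). It also passed in edgeR without wild type replicate 3 (log2 fold change 2.53, adjusted p = 8.96e-05), where 39.2% of all genes passed. Across the other alternatives the adjusted p ran up to 0.399. With the range of sample-name numbers as a term its log2 fold change was 1.15, which rests on wild type replicate 3 alone among the wild type libraries. Of the 50-base windows of Zfp982 88.1% were unique, a higher share than for any member.

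Zfp984 and Zfp933, at the far end of the cluster, were expressed in both groups and showed no difference that could be detected. Zfp984 had 15.6, 15.4 and 14.1 CPM in null against 14.9, 15.5 and 15.7 CPM in wild type libraries (log2 fold change -0.03 ± 0.09 SE, edgeR adjusted p = 0.884). Zfp933 had 24.1, 24.0 and 22.9 CPM in null against 21.6, 21.3 and 22.9 CPM in wild type libraries (0.11 ± 0.08 SE, edgeR adjusted p = 0.43). Zfp984 is the next tested gene beyond Zfp979, with records that start 1964 and 1822 kb from that of Znf41-ps, and its coding sequence is 90.5% identical to that of Zfp992.

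The remaining 6 zinc finger records of the interval had few counts or none and were not tested. The same held for Rex2 and Gm13212, which hold finger patterns but lack a zinc finger symbol. Counts pooled over the 3 libraries of a group were 29 in null and 7 in wild type for Zfp534, a ratio of 3.79 after scaling by depth (95% exact binomial interval 1.62 to 10.2). Zfp600 had 12 in null and 1 in wild type, a ratio of 11 with an interval of 1.62 to 469. Zfp980 had 10 in null and 0 in wild type, with an interval that began at 2.05. With the wild type set at a floor of 3 counts over the group, its ratio was 3.05. Rex2 had 13 in null and 4 in wild type (ratio 2.97, interval 0.918 to 12.5), and Gm13212 had 11 in null and 4 in wild type (ratio 2.51, interval 0.745 to 10.8). Zfp981 had 4 in null and 3 in wild type, Zfp985 had 1 in null and 0 in wild type, and Zfp987 had none in either group. These intervals cover counting error only, and most of these genes share windows with others of the cluster. The unique share of their 50-base windows ran from 10.9% (Rex2) to 84.1% (Zfp985). How far reads of neighbours enter such counts, or reads of their own were lost to copies, was not tested.

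The tested genes between and beside the zinc finger genes had small fold changes. The pseudogene Gm21082, which starts 1039 kb beyond the Znf41-ps start, did not pass the filter. It had 4, 7 and 8 counts in null replicates 1 to 3 and 0 in each wild type library. None of the 13 other tested genes of the interval passed the edgeR test, and 2 had an unadjusted p under 0.05, as did 18.6% of all genes. None was called by DESeq2, which called 2.86% of the genes it adjusted, and 6 were called by limma-voom with sample quality weights, which called 36.4%. Their log2 fold changes ran from -0.30 to 0.43 with a median of -0.10, against 0.00 over all genes tested. Those with the smallest p were the pseudogenes Gm13232 (-0.28 ± 0.08 SE, edgeR adjusted p = 0.176) and Gm20875 (-0.21 ± 0.07, adjusted p = 0.213), followed by Gm13237 (-0.14 ± 0.07), Gm13238 (0.43 ± 0.22) and Mfn2, a mitochondrial fusion gene (0.20 ± 0.12). Without wild type replicate 3, 2 of the 13 were called higher and 4 lower, where 19.7% and 19.4% of all genes were.

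The edges of the pattern can be placed only between tested genes. Zfp980, untested, starts 119 kb before Znf41-ps and so beyond Gm13232, with 10 pooled counts in null and 0 in wild type. Zfp534, also untested, starts 1885 kb beyond the Znf41-ps start and so past Zfp979, with 29 in null and 7 in wild type. Whether the pattern reaches these genes was not tested. On the near side, Gm13232, which starts 60 kb before Znf41-ps, stood at 50.8 ± 2.56 CPM in null and 61.4 ± 5.40 CPM in wild type libraries. Smarca5-ps, 325 kb before it, stood at 60.8 ± 3.59 CPM in null and 62.2 ± 4.06 CPM in wild type libraries. On the far side, beyond Zfp933, Miip stood at 24.0 ± 3.66 CPM in null and 22.5 ± 2.20 CPM in wild type libraries. Fv1, a restriction factor against murine leukaemia viruses, stood at 16 ± 0.488 CPM in null and 14.3 ± 2.22 CPM in wild type libraries. Between Znf41-ps and Zfp979, whose starts lie 1822 kb apart, members alternated with tested pseudogenes such as Gm13238, Gm13237 and Gm20875, none of which passed. Gm13232 and Smarca5-ps on the near side are pseudogenes as well. Shared windows were not searched for in any of these pseudogenes. How far reads of copies elsewhere enter their counts was not tested, so they mark the edges only loosely. Groups did not overlap for 1 of the 13 with null higher and for 3 with null lower, against 11.4% and 10.6% of all genes.

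**Figure D3:**
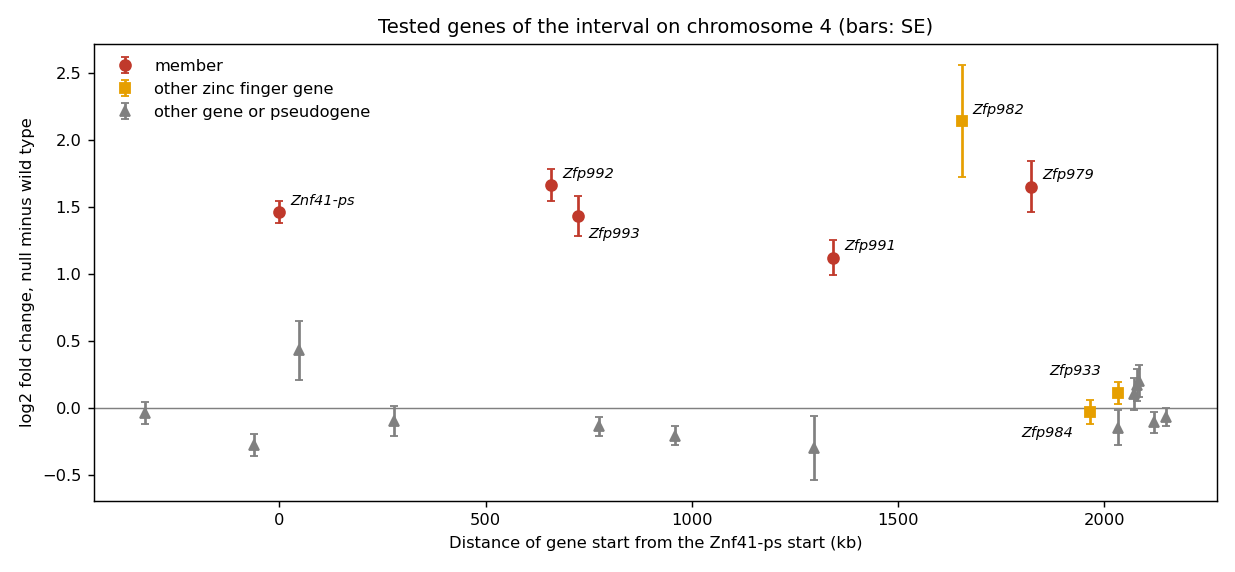
Log2 fold change, null minus wild type, with its SE, for the tested genes of the interval against the distance of each gene's start from that of Znf41-ps in kb (circles members, squares other zinc finger genes, triangles other genes and pseudogenes). The 5 members and Zfp982 lie at 1.12 or above, while the triangles among them lie between -0.30 and 0.43.

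Promoter sequences were at hand for 13 of the zinc finger genes of the interval, and for Zfp979 and Zfp993 among the members. The Zfp993 entry belongs to the predicted RefSeq start and is not shown. Zfp979 was higher in null cells, and Zfp984 was expressed in both groups without a detected difference. Zfp600 had few counts, and its pooled counts were also higher in null (12) than in wild type (1). The promoters of Zfp979, Zfp600 and Zfp984 are shown because they are copies of one another whose genes differ in counts. Each runs 5′ to 3′ on the gene's strand, from 250 bases before to 50 after the start (RefSeq, GRCm38.p6), with CG dinucleotides in capitals. They lie at chr4:147642459-147642758 (minus strand), chr4:146156577-146156876 (plus strand) and chr4:147809739-147810038 (minus strand).
Zfp979: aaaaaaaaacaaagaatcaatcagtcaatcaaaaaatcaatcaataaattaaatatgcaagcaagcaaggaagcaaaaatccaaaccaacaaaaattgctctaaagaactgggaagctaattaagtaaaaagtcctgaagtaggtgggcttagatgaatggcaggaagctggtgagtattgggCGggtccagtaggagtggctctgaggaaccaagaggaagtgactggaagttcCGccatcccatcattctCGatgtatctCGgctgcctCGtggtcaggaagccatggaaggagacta
Zfp600: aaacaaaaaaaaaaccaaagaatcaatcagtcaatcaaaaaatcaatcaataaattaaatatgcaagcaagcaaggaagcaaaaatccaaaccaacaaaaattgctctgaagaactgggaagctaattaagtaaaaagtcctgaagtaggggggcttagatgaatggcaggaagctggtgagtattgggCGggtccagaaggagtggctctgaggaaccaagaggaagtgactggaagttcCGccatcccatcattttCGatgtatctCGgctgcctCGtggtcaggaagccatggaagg
Zfp984: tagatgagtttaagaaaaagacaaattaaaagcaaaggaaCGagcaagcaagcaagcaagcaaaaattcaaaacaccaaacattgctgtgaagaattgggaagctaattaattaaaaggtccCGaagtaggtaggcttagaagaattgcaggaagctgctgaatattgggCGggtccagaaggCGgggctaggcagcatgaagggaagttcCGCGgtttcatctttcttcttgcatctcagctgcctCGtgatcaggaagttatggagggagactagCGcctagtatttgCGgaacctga

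The Zfp979 promoter was 98.3% identical to that of Zfp600 over 294 aligned bases, 98.6% identical to that of Rex2 over 294 and 80.2% identical to that of Zfp984 over 273. It held 5 CG dinucleotides, as many as the Zfp600 promoter, and the Zfp984 promoter held 9. The median over 32851 promoters was 7, and 43.6% of promoters held 5 or fewer. All 3 held the string ATTGGGCGG, in which an inverted CCAAT box and a GC box (GGGCGG) overlap by 2 bases. Searched on both strands, that string was present in 9 of the 13 zinc finger genes of the interval and in 0.303% of 27025 genes with a promoter entry. CCAAT was present in 11 of 13 and in 41.1% of genes, and GGGCGG in 9 of 13 and in 38.2%. Such matches describe letters, and no binding was measured.

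Among zinc finger genes elsewhere in the genome, 370 were tested. The edgeR test called 1 higher and 0 lower, or 0.270%, near the 0.577% over all genes, and their median log2 fold change was 0.04. The 1 called gene was Zfp976 on chromosome 7, with 13.6, 11.7 and 10.7 CPM in null and 3.57, 3.33 and 5.66 CPM in wild type libraries (log2 fold change 1.58 ± 0.20 SE, adjusted p = 0.00999). Without wild type replicate 3, 83 were called higher and 41 lower of 373, or 33.2%, where 39.2% of all genes were called. Under each of the other 5 omissions none was called. Chromosome 7, with 91, and chromosome 17, with 46, held more tested zinc finger genes than chromosome 4, with 19.

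**Figure D4:**
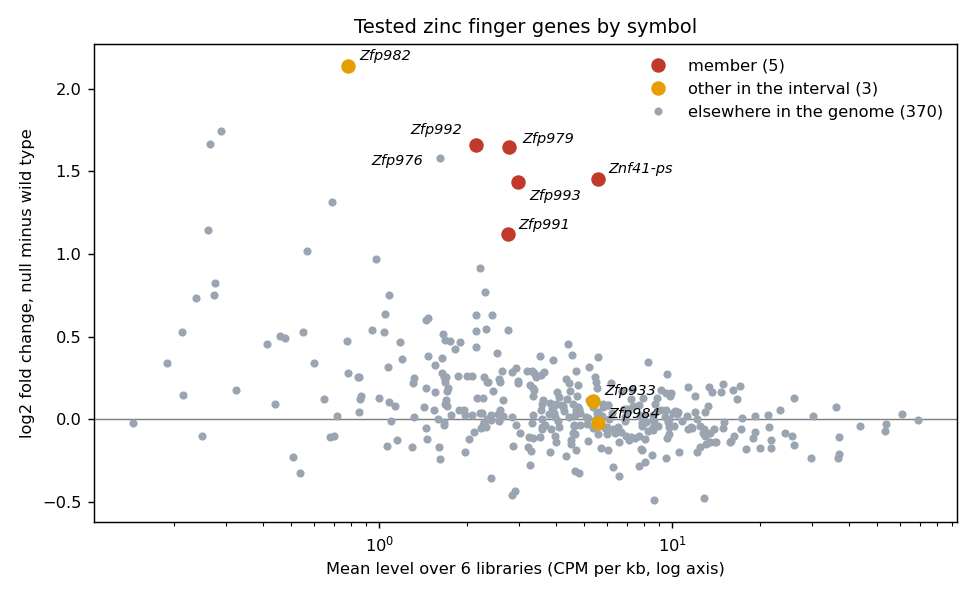
Log2 fold change, null minus wild type, against the mean level over the 6 libraries (CPM per kb, log axis) for the tested zinc finger genes, with members in red, the other 3 of the interval in orange and the 370 elsewhere in grey. The members lie between 1.12 and 1.66, Zfp984 and Zfp933 lie near 0, and Zfp976 is the called gene elsewhere, where values run from -0.49 to 1.74 and spread most at low levels.

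The pattern over the 6 libraries was compared with that of every other tested gene by Pearson's r between log2(CPM + 1) and the mean of the members' standardised values. The 6 highest were the protocadherin genes Pcdhb12 (0.998) and Pcdhb22 (0.998), the X-linked genes Dach2 (0.995) and Dcaf12l1 (0.995), the protocadherin gene Pcdhgb2 (0.994) and the X-linked gene Klhl4 (0.994). Pcdhb22 had 32.8, 31.6 and 31.8 CPM in null and 10.6, 10.6 and 12.5 CPM in wild type libraries, and Dcaf12l1 had 4.84, 3.98 and 4.68 CPM in null and 0.814, 0.895 and 0.893 CPM in wild type libraries. Pcdhgb2, at 9.31 ± 0.317 CPM in null and 6.87 ± 0.152 CPM in wild type libraries, did not pass (log2 fold change 0.44, edgeR adjusted p = 0.136). With 2 groups of 3 libraries such an r mostly reflects the difference between the groups.

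RNA of a list of silencing genes was set beside the members. That list is wider than the machinery that KRAB zinc finger proteins recruit, since it also holds Lrif1, Zfp57 and Uhrf1. Of 37 tested genes on that list, edgeR called 0, against 0.577% of all genes. There were 6 at an unadjusted p under 0.05, against 18.6% of all genes. The median log2 fold change was -0.04, with a range of -0.30 to 0.68. With DESeq2 1 was called and with limma-voom and quality weights 20 were, where 2.86% and 36.4% of all genes were. The smallest p belonged to Lrif1, whose protein binds SMCHD1 at chromatin (15.0 ± 0.503 CPM in null and 9.45 ± 1.25 CPM in wild type, log2 fold change 0.68 ± 0.12 SE, edgeR adjusted p = 0.0505). Next came Morc2a, an ATPase gene that acts with the HUSH silencing complex (0.19 ± 0.06, adjusted p = 0.174), Zfp57, a KRAB zinc finger gene of imprinted regions (0.45 ± 0.14, adjusted p = 0.189), and Uhrf1, a gene for maintenance of DNA methylation (-0.25 ± 0.09, adjusted p = 0.223). Without wild type replicate 3, 5 were called higher and 15 lower, where 19.7% and 19.4% of all genes were.

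Markers of other cell types were set beside the members, since several genes of the cluster are known to be active in pluripotent cells. The 4 pluripotency genes summed to 0.047 to 0.223 CPM in null and 0.0388 to 0.0992 CPM in wild type libraries, with Zfp42 and Dppa3 at 0 counts in all 6 and none abundant enough to be tested. The 4 germline genes summed to 3.29 to 4.36 CPM in null and 2.81 to 3.67 CPM in wild type libraries, with Mael at 0 counts in all 6. Microglial, vessel, fibroblast and red cell lists stayed under 4 CPM in every library, with C1qa, Cdh5 and Hbb-bs at 0 counts. The 6 neuronal genes summed to 1003 to 1031 CPM in null and to 1090 to 1142 CPM in wild type libraries, without overlap. Most of that sum was Map2, which averaged 981 CPM in null and 1084 CPM in wild type libraries. The edgeR test called 0 of the 6, and their median log2 fold change was -0.03. Any part of neuronal content in the members' values was not tested. The 6 oligodendrocyte lineage genes summed to 178 to 214 CPM in null libraries, and to 70.8, 69.8 and 258 CPM in wild type replicates 1, 2 and 3. The 4 astrocyte genes summed to 76.2 to 81.0 CPM in null and to 37.1, 53.2 and 106 CPM in wild type replicates 1, 2 and 3. Wild type replicate 3 was thus the highest wild type library for both lists, while its members' sum (29.3 CPM) was close to that of the other wild type libraries (27.3 and 28.0 CPM). Zfp979 was also highest among wild type libraries there, at 4.47 CPM against 2.87 and 3.41 CPM. By smaller margins so were Znf41-ps (13.9 against 13.4 and 13.5 CPM), Zfp992 (3.97 against 3.88 and 3.54 CPM) and Zfp993 (2.58 against 2.52 and 2.3 CPM). Zfp991 was lowest there, at 4.37 against 4.61 and 5.24 CPM. The part of glial content in the members' values was not tested.

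The members' fold changes were similar under most fits, but those of Zfp991 and Zfp979 moved with a sample-name term. Over 13 alternatives the log2 fold change ran from 1.41 to 1.49 for Znf41-ps, 1.59 to 1.70 for Zfp992, 1.36 to 1.47 for Zfp993, 1.07 to 1.25 for Zfp991 and 1.28 to 1.79 for Zfp979. Without wild type replicate 3 the values were 1.47, 1.68, 1.45, 1.07 and 1.79 in the same order. The lower range of sample-name numbers, 11 to 14, holds all null libraries but, of the wild type, replicate 3 alone. With that range as a term, the null libraries are in effect set against wild type replicate 3 alone, the library that stood apart. The values were then 1.42, 1.59, 1.36, 1.25 and 1.28 in the same order, and they rest on that 1 wild type library. Zfp991 thus moved from 1.12 and Zfp979 from 1.65 in the fit with genotype only, by at least the SD among their replicates. All 5 were called higher, as were 0.542% of all genes, with 0.767% lower and 1.31% either way. All 13 alternatives gave all 5 members a positive log2 fold change. Since the members were chosen for being higher in null in these same libraries, such calls and signs describe the fits and add no support.

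**Figure D5:**
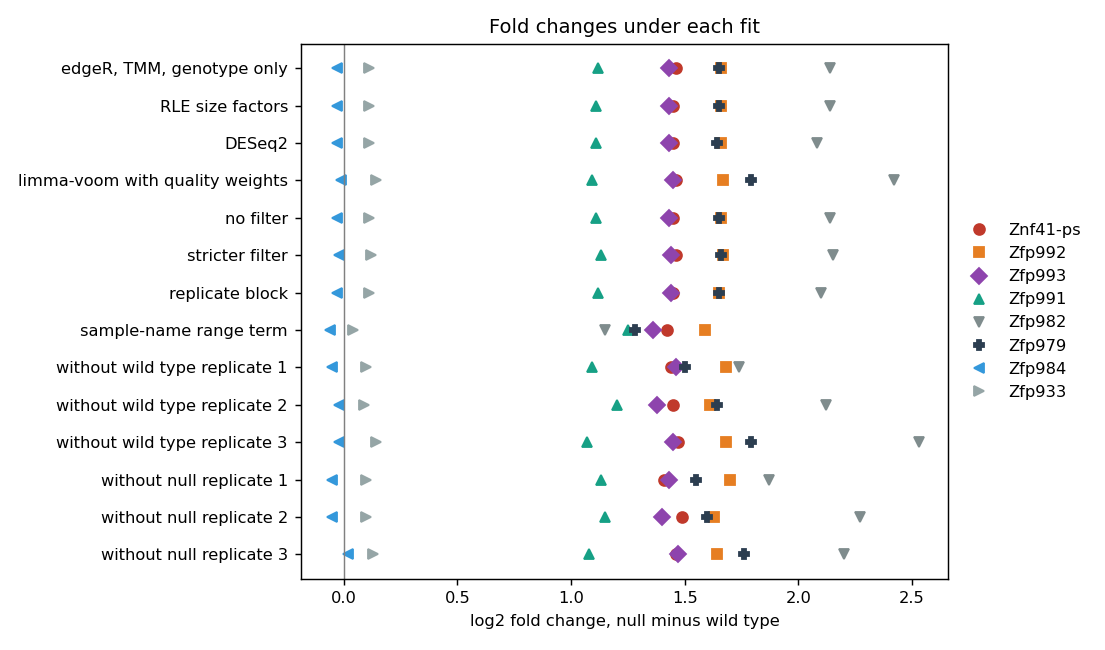
Log2 fold change, null minus wild type, of the 5 members and of Zfp982, Zfp984 and Zfp933 under the fit with genotype only and 13 alternatives, 1 per line. The members lie between 1.07 and 1.79 throughout, Zfp984 and Zfp933 lie near 0, and Zfp982 moves most, between 1.15 and 2.53.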

How the data were processed

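The authors deposited raw counts per Entrez gene with a gene length for each of 6 libraries, per the file headers. Per the labels' protocols the kit was TruSeq RNA v2, which does not mark strand, so antisense reads cannot be told apart. Per the submitters' processing notes the build named was mm10, and the listed software was edgeR 3.8.2 with limma 3.22.0, beside CASAVA 1.8.2 and featureCounts. The sources used here give no aligner, annotation or rule for multi-mapping reads.

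Symbols came from the RefSeq gene table of GRCm38.p6, which matched 25275 of 27179 IDs. It holds no descriptions, so zinc finger genes were taken by symbol (Zfp, Znf or Zscan). Members, lists and tests were chosen with earlier results of these data known. Counts were filtered with filterByExpr (minimum count 10), scaled by TMM and tested with the robust quasi-likelihood test of edgeR 4.0.16 (R 4.3.3; two-sided), with genotype as the only term and Benjamini-Hochberg adjustment over 14207 genes at 0.05. The test was also checked on simulated data. Alternatives used DESeq2 1.42.0, limma 3.58.1, other scaling and filters, a replicate block, a sample-name term and the omission of each library. Coding sequences were aligned with MAFFT 7.526, promoters with Biopython 1.88. Genes named besides the members were the other tested zinc finger genes of the interval, its 5 other genes with the smallest p, 2 flanking genes a side, Smchd1, 4 silencing genes, called zinc finger genes elsewhere and the 6 most similar patterns. The untested zinc finger genes of the interval are all named, and Gm21082, Rex2 and Gm13212 were added after their values were seen.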

Additional observations from a re-analysis of the deposited data

How the results depend on the processing

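Counts of called genes depended on the fit far more than the members' fold changes did. Against 82 genes called over the genome, DESeq2 called 398, limma-voom with quality weights 5168, the fit without a filter 222, the sample-name term 186 and the replicate block 54, and leaving out 1 library gave 30 to 5676, the highest without wild type replicate 3. Of the zinc finger genes of the interval 5 were called, and leaving out 1 library gave 3 to 6. Zfp991 and Zfp979 were not called without null replicate 1, Zfp979 not without null replicate 2 and Zfp991 not without null replicate 3, while Zfp982 was added without wild type replicate 3. Taking zinc finger genes by their finger patterns, an alternative added after the data were seen, gave 4, since the Zfp993 model holds only 2. Among the other genes of the interval, where 0 were called, quality weights gave 6 and no filter 1, the pseudogene Gm21082, and the omissions gave 0 to 6. Among zinc finger genes elsewhere, where 0.27% of those tested were called, DESeq2 gave 1.63%, quality weights 30.5% and no filter 1.5%, and the omissions gave 0% to 33.2%. Among the silencing genes, where 0 were called, RLE scaling gave 1, DESeq2 1, no filter 1 and quality weights 20, and the omissions gave 0 to 20. The causes were not tested. The replicate numbers did not pair the libraries: the correlations of deviations were 0.00415, 0.0136 and -0.0675, and 0 of 6 libraries correlated best with its own number. All 5 members were called with the replicate block, which is no new test of them, since they were chosen on this contrast. Depth limits the untested finger genes of the cluster, with 29 pooled counts a group at most.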
